A study of Mus musculus with 6 samples.

Results

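Ets family transcription factors are described here through 8 genes, Ets1, Ets2, Elf1, Elf2, Elf4, Fli1, Gabpa and Elk3, out of 18193 genes on the array with a probe of a single gene symbol. The members were taken by name, as every probe whose annotation gives one of these symbols, which found 22 probes. Each gene was represented in the tests by its probe with the highest mean, and the 8 members passed the filter on dim genes, which 10916 genes passed. Thymocytes were sorted by surface CD4 and CD8 into double-positive (DP) cells, CD4intCD8+ cells with intermediate CD4, and CD8 single-positive (CD8SP) cells, and each of these 3 stages was measured on 2 arrays. All 3 groups came from H-2b mice, N15 TCR tg+/+ and RAG-2-/-, aged 5 to 6 weeks, 6 age- and sex-matched animals being sorted for 2 independent experiments, so that every group carries the same receptor transgene and lacks Rag2, and no other antigen receptor is assembled. Nothing ties an array to separate animals, so the p-values cover only the spread among arrays, which may be technical.

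Ets factors share a DNA-binding domain, the ETS domain, that recognises a GGAA core, and they differ in the parts of the protein that answer to kinases or bind partners. In T cells they act at the enhancers of receptor and coreceptor genes, often beside Runx factors. Ets1 and Ets2 are close relatives, Elf1, Elf2 and Elf4 form a subfamily, Gabpa is the DNA-binding subunit of the GABP complex, and Elk3 is a ternary complex factor that binds DNA together with serum response factor.

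The promoter windows of 2 members are shown: Ets2, because it had the largest change of the 8 members between stages, and Gabpa, because its window overlaps 1 of the 2 windows of the neighbouring gene Atp5j. The windows are from RefSeq (GRCm38.p6) and run from 250 bases before to 50 after a start of the gene. They are given 5′ to 3′ on the gene's own strand, at chr16:95702157-95702456 (+) for Ets2 and chr16:84834874-84835173 (+) for Gabpa. The annotated range of Gabpa begins at 84834891, before the start used for its window. Most of that window, with the match reported below, lies inside the annotated gene. Capitals mark the Ets-type motif GGAAGT, searched on both strands.
Ets2: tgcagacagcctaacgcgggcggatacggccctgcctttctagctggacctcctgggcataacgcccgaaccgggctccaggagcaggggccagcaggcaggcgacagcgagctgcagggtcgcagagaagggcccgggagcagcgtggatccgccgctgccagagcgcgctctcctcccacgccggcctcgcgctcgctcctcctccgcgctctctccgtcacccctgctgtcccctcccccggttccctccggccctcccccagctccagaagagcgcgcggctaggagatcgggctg
Gabpa: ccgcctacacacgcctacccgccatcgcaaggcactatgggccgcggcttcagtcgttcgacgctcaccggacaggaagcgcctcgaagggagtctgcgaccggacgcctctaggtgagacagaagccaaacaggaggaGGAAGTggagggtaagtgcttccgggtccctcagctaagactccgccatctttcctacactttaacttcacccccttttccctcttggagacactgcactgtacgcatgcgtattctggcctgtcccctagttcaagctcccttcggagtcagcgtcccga
The Gabpa window held 1 match and the Ets2 window none. The promoter table held 9 windows of 300 bases for 6 of the members, of which 3 (33.3%) contained GGAAGT, against 7809 of all 32851 windows (23.8%). A match is a description of the letters only.

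The labels were checked by markers. Of 6 tested DP markers 5 were lower in CD8SP than in DP, beside 8.35% of all tested genes. All 7 of 7 tested CD8SP markers were higher, beside 11.5% of all tested genes. The DP list includes Cd8a and Cd8b1, genes of the CD8 protein used in the sort. Median intensity lay between 24.9 and 25.7 on every array. The ratio of the actin 3' signal to the 5' signal, a measure of RNA length, was 1.98 and 2.14 in DP cells, 2.37 and 3.47 in CD4intCD8+ cells, and 2.28 and 2.62 in CD8SP cells. CD4intCD8+ replicate 2 stood above the others, and both DP arrays lay below every array of the later stages. In comparisons with DP, stage and this ratio thus cannot be fully told apart, also where the ratio is used as a covariate. The summed intensity of 6 endothelial markers, chosen because Fli1 and Elk3 are also known from blood vessels, was 180 to 224 in DP, 120 to 169 in CD4intCD8+ and 132 to 138 in CD8SP. Pecam1, which T cells also carry, made up the largest part. It was called lower in CD8SP than in DP (log2 change -0.90, adjusted p = 0.0399), but not without DP replicate 1 (-0.63, adjusted p = 0.252), DP replicate 2 (0.0539), CD8SP replicate 1 (0.125) or CD8SP replicate 2 (0.108). Kdr, the other of the 2 tested endothelial markers, had the opposite sign, higher in CD8SP than in DP. The defining markers Cdh5, Tie1, Tek and Emcn stayed under the filter level of 30.8 on every array. The part of such cells in the results was not tested. Summed markers of B, myeloid, dendritic, thymic epithelial and erythroid cells lay between 87.5 and 241 on every array. Among their 9 tested genes 1, a B cell marker, was called in CD8SP against DP, where it was higher. Of all tested genes 19.8% were called in that comparison.

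Ets2, a factor that ERK kinases phosphorylate, was lower in both later stages than in DP. Its intensity was 1691 and 1915 in DP cells, 596 and 663 in CD4intCD8+ cells, and 416 and 413 in CD8SP cells. The 3 stages did not overlap, and the DP arrays stood far above the other 4. Against DP, Ets2 fell in CD4intCD8+ by 1.51 ± 0.11 on the log2 scale (SE; limma adjusted p = 0.000672), so that the CD4intCD8+ level was 0.351 of the DP level. Fold changes are on the scale of log2(intensity + 5.84), where 5.84 is a pseudocount. Over the whole span the fall was 2.10 ± 0.11 (adjusted p = 2.52e-05), to 0.233 of the DP level in CD8SP. Both calls held in all 18 alternative settings, with log2 changes from -1.65 to -1.14 for CD4intCD8+ against DP and from -2.19 to -1.44 for CD8SP against DP. In a bulk measurement fewer cells of a type and less RNA per cell cannot be told apart.

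The second step of Ets2 depended on how the replicates were treated. In CD8SP against CD4intCD8+ its log2 change was -0.59 ± 0.11, with an adjusted p of 0.111 without and 0.0125 with the replicate number as a block. CD4intCD8+ lay 0.46 below the mean of CD8SP and DP on the log2 scale, which tests whether the first step differs from the second. That difference was not called without the block (adjusted p = 0.28) and was called with it (adjusted p = 0.0291). A second Ets2 probe, 1447685_x_at, read 268 and 322 in DP cells, 80.2 and 86.7 in CD4intCD8+ cells, and 44.6 and 66.6 in CD8SP cells, and gave log2 changes of -1.75 for CD4intCD8+ against DP and -2.31 for CD8SP against DP (adjusted p = 0.00329 and 0.000239 over single probes). The third, 1437809_x_at, read between 6.39 and 10.2 on the 6 arrays, under the filter level, and gives no usable change.

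**Figure D1:**
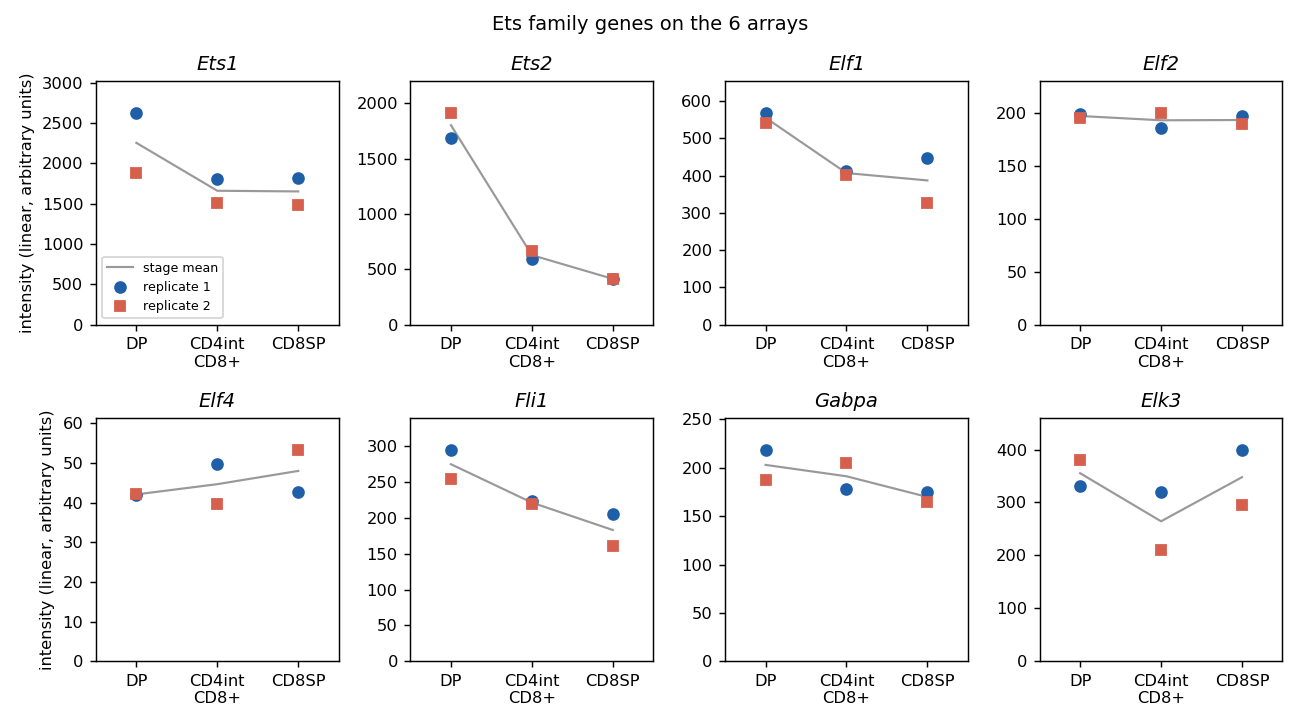
Intensity (linear scale from 0) of the probe that stands for each of the 8 genes, by stage; circles are replicate 1, squares replicate 2 and the line joins stage means. Ets2 drops from DP to both later stages with no overlap, Elf2 stays between 186 and 199.9 on the 6 arrays, and Ets1 is higher in replicate 1 than in replicate 2 at each stage.

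Ets1, which binds the T cell receptor alpha enhancer and is needed for normal CD8 lineage development in mice, read 2627 and 1883 in DP cells, 1808 and 1514 in CD4intCD8+ cells, and 1819.7 and 1486 in CD8SP cells. The later stages lay below both DP arrays, by a narrow margin, and overlapped each other. The log2 change was -0.43 ± 0.17 for CD4intCD8+ against DP (adjusted p = 0.127) and -0.43 ± 0.17 for CD8SP against DP (adjusted p = 0.099). Replicate 1 exceeded replicate 2 by 0.48, 0.26 and 0.29 on the log2 scale in DP, CD4intCD8+ and CD8SP. With the replicate number as a block both changes were called (adjusted p = 0.00383 and 0.00229), at the same size. Without DP replicate 2 the change for CD8SP against DP was -0.67 and called (adjusted p = 0.0403), and without DP replicate 1 it was -0.20 (adjusted p = 0.509). From CD4intCD8+ to CD8SP the change was -0.01, with a 95% interval of -0.38 to 0.36 on the log2 scale. With the actin ratio as a covariate, the log2 change of Ets1 was -0.09 in CD4intCD8+ against DP (adjusted p = 0.871) and -0.26 in CD8SP against DP (adjusted p = 0.243).

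The 3 other Ets1 probes were also lower on both CD4intCD8+ arrays than on both DP arrays. Probe 1426725_s_at read 2139 and 1743 in DP cells, 1632 and 1424 in CD4intCD8+ cells, and 1663 and 1323 in CD8SP cells. Probes 1422027_a_at and 1422028_a_at gave log2 changes of -0.68 and -0.64 for CD4intCD8+ against DP. Tested one by one, none of the 4 probes was called by limma in that comparison (adjusted p from 0.14 to 0.163), where 4.04% of 17214 single probes were called lower.

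Elf1, which binds regulatory elements of several lymphoid genes, read 569 and 542 in DP cells, 413 and 401 in CD4intCD8+ cells, and 447 and 328 in CD8SP cells. Both later stages lay below DP, and the CD8SP arrays lay on either side of the CD4intCD8+ arrays. Elf1 fell in CD8SP against DP by 0.53 ± 0.15 (adjusted p = 0.0413, and 0.00873 with the block). For CD4intCD8+ against DP the log2 change was -0.44 ± 0.15 (adjusted p = 0.0946), called with the block (adjusted p = 0.0258). The CD8SP call was lost without DP replicate 1 (adjusted p = 0.176), without DP replicate 2 (0.128) and without CD8SP replicate 2, where the change was -0.31 (0.239). The second Elf1 probe, 1439319_at, read 29.7 to 44.9 on the 6 arrays and gave -0.19 for CD8SP against DP (adjusted p = 0.628 over single probes).

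Fli1, a factor of blood and vessel development that lies next to Ets1 in the mouse genome, had its highest values in DP and its lowest in CD8SP. It read 295 and 254 in DP cells, 223 and 219 in CD4intCD8+ cells, and 206 and 160.2 in CD8SP cells, with no overlap between stages. Fli1 fell in CD8SP against DP by 0.58 ± 0.16 (adjusted p = 0.0337, and 0.00656 with the block). The single steps were -0.30 ± 0.16 (adjusted p = 0.248) and -0.28 ± 0.16 (adjusted p = 0.641), not called with or without the block. The CD8SP call was lost without DP replicate 1 (adjusted p = 0.189), DP replicate 2 (0.0723) or CD8SP replicate 2 (0.198), and with the actin covariate (0.0672), where the change was -0.50. The second probe, 1422024_at, gave -0.60 for CD8SP against DP and lay under the filter level. The summed endothelial markers were also lower on both CD8SP arrays than on both DP arrays, at 132 to 138 against 180 to 224. Of these 6 markers 4 lay under the filter, and the 2 tested, Pecam1 and Kdr, changed in opposite directions. The part of these markers in the Fli1 result was not tested.

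**Figure D2:**
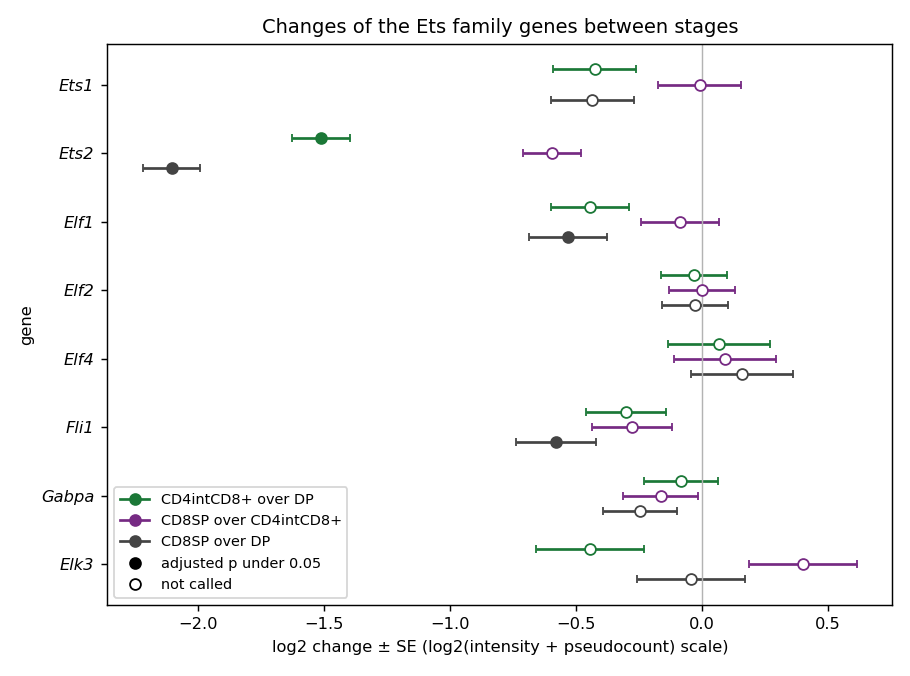
Log2 change with its standard error for each gene in the 3 comparisons between stages (x axis, log2 scale); filled points passed an adjusted p of 0.05. Ets2 stands apart at -1.51 and -2.10, Elf1 and Fli1 are filled for CD8SP over DP, and no change of Elf2, Elf4, Gabpa or Elk3 is filled.

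Elf2, a relative of Elf1, had nearly the same intensity on all 6 arrays: 199 and 195 in DP cells, 186 and 199.9 in CD4intCD8+ cells, and 197 and 189.7 in CD8SP cells. The stages overlapped. For CD8SP against DP the log2 change was -0.03 with a 95% interval of -0.32 to 0.27. Another Elf2 probe above the filter level, 1428045_a_at, read 35.3 and 43.6 in DP cells, 26.4 and 29.1 in CD4intCD8+ cells, and 36.3 and 29.6 in CD8SP cells, and was not called (adjusted p = 0.537 for CD8SP against DP). The third, 1418276_at, read between 7.88 and 15.1, under the filter level.

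Gabpa, known in mice as a regulator of the interleukin 7 receptor gene, read 219 and 187 in DP cells, 178 and 205 in CD4intCD8+ cells, and 175 and 164 in CD8SP cells. The CD8SP arrays were the lowest, and the 2 other stages overlapped. The log2 change for CD8SP against DP was -0.25 ± 0.15 (adjusted p = 0.285), with a 95% interval of -0.58 to 0.09. The second probe, 1450665_at, gave -0.14 (adjusted p = 0.578). Gabpb1, which encodes the partner subunit that carries the activating domain, read 220 and 206 in DP cells, 159 and 192 in CD4intCD8+ cells, and 140.3 and 132 in CD8SP cells, and fell in CD8SP against DP by 0.62 ± 0.15 (adjusted p = 0.0178). That call was lost without DP replicate 1 (adjusted p = 0.105), DP replicate 2 (0.0688) or CD8SP replicate 2 (0.0936) and with the mean of its probes (0.0725). Gabpb2, the other beta subunit, had a log2 change of -0.08 (adjusted p = 0.717). Whether the change of Gabpb1 differs from that of Gabpa was not tested. Atp5j, an ATP synthase subunit, has 2 promoter windows, of which one shares 247 bases with the Gabpa window shown above and the other 0, and its probe read 1631 and 1643 in CD8SP, against 1482 and 1741 in DP (log2 change 0.03, adjusted p = 0.885).

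Elf4, which restrains the proliferation of CD8 T cells in mice, read 42.0 and 42.1 in DP cells, 49.6 and 39.6 in CD4intCD8+ cells, and 42.6 and 53.3 in CD8SP cells. Both CD8SP arrays lay above both DP arrays, but the nearest pair read 42.6 in CD8SP and 42.1 in DP. The log2 change for CD8SP against DP was 0.16 ± 0.20 (adjusted p = 0.627), with a 95% interval of -0.30 to 0.62. Its second probe, 1421338_at, read between 15.7 and 28.2, under the filter level.

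Elk3, which represses serum response genes until ERK signalling releases it, gave different answers by probe. The probe that stands for the gene, 1448797_at, read 331 and 380 in DP cells, 319 and 210.1 in CD4intCD8+ cells, and 400.02 and 296 in CD8SP cells, and the CD8SP arrays overlapped DP. Its log2 change was -0.44 ± 0.21 for CD4intCD8+ against DP (adjusted p = 0.209) and -0.04 ± 0.21 for CD8SP against DP (adjusted p = 0.914). Probe 1435143_at read 133 and 137 in DP cells, 98.4 and 79.5 in CD4intCD8+ cells, and 88.4 and 89.9 in CD8SP cells, with both later stages below DP, and was called lower in CD8SP than in DP by 0.57 ± 0.16 (adjusted p = 0.0394 over single probes, of which 7.68% were called lower). Probe 1417662_at gave -0.56 (adjusted p = 0.139), and the fourth, 1445886_at, lay under the filter level at 7.29 to 11.2. The transcripts that these probes report were not examined. Without CD4intCD8+ replicate 1 the gene was called lower in CD4intCD8+ than in DP (-0.74, adjusted p = 0.0427), and with the actin covariate the change was 0.07 (adjusted p = 0.917).

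**Figure D3:**
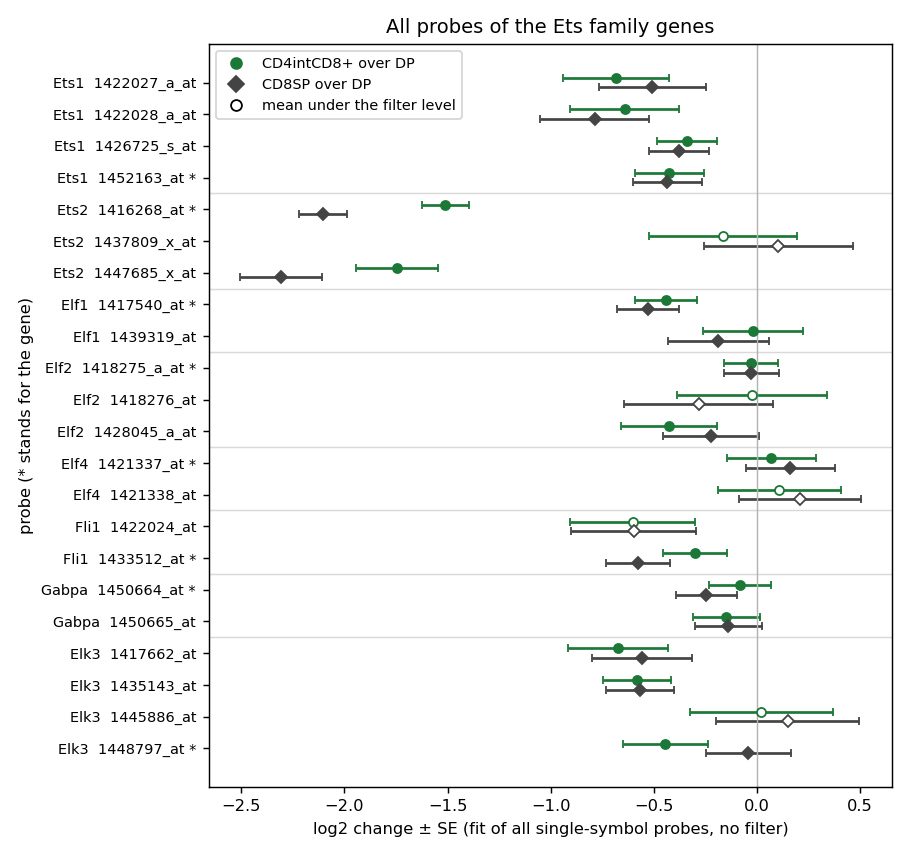
Log2 change with its standard error for all 22 probes of the 8 genes, for CD4intCD8+ over DP (circles) and CD8SP over DP (diamonds); open symbols mark probes with a mean under the filter level and the asterisk the probe that stands for the gene. The 4 Ets1 probes lie on the same side of 0, while the Elk3 probes spread from -0.57 to 0.15 for CD8SP over DP.

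Counted together, 1 of the 8 members (Ets2) was lower in CD4intCD8+ than in DP and 0 were higher, where 4.84% of all tested genes were lower and 6.86% higher. With the replicate block the members called lower were 3 (Ets1, Ets2 and Elf1), against 10.1% of genes. Without CD4intCD8+ replicate 1 Elk3 was called lower beside Ets2, in a fit that called more of all tested genes. Without CD4intCD8+ replicate 2, the array with the highest actin ratio, Ets2 alone was called, and fewer of all tested genes were. In CD8SP against DP 3 members were lower (Ets2, Elf1 and Fli1) and 0 higher, against 8.35% of genes lower and 11.5% higher, and with the block 4 were lower, against 13.1%. The count of 3 fell without DP replicate 1, DP replicate 2 or CD8SP replicate 2, fits in which fewer of all tested genes were called too. From CD4intCD8+ to CD8SP limma called 0 of the 8 members, against 0.119% of genes, and 1 member had an unadjusted p under 0.05, against 9.61% of genes. With the block 1 was called, against 2.08%. For the difference between the steps limma called 0 members, against 0.00916% of genes, with 2 members (Ets2 and Elk3) at an unadjusted p under 0.05, against 12.7% of genes, and with the block 1 was called, against 1.97%. The median log2 change of the members was -0.36 for CD4intCD8+ against DP and -0.34 for CD8SP against DP, beside 0.01 for all tested genes in both. The 2 comparisons share the DP arrays.

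Groups that did not overlap were common among all genes. For CD4intCD8+ against DP 5 members had both later arrays below both DP arrays, a pattern found in 27.9% of tested genes. For CD8SP against DP 5 members lay below without overlap, against 29.1% of genes, and 1 lay above, against 32.4%. For CD8SP against CD4intCD8+ 3 members lay below (Ets2, Fli1 and Gabpa), against 18.6%.

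The profile of Ets2 was compared with that of every other tested gene, by the root mean square difference of log2 values centred on their own mean over the 6 arrays. Nearest was Ctsl, which encodes cathepsin L, a lysosomal protease, with a difference of 0.0389. It read 783 and 865 in DP cells, 269 and 316 in CD4intCD8+ cells, and 179.5 and 186 in CD8SP cells. Next came Glcci1 (0.0964) and Ssbp2 (0.107), a single-stranded DNA binding protein gene, which read 221 and 249, and 335 and 328, on the CD8SP arrays, against 960.2 and 950.04, and 1455 and 1574, on the DP arrays. Like Ets2, all 3 had their highest values on the DP arrays and their lowest on the CD8SP arrays. The likeness is a description over 6 arrays in 3 groups. No other member passed the F test over the stages that the comparison required (adjusted p = 7.05e-05 for Ets2), which 15.2% of genes passed. With the replicate block Ets1, Elf1 and Fli1 passed it too (adjusted p = 0.00314, 0.0167 and 0.0179), as did 28.4% of genes, and no likeness was computed for them.

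**Figure D4:**
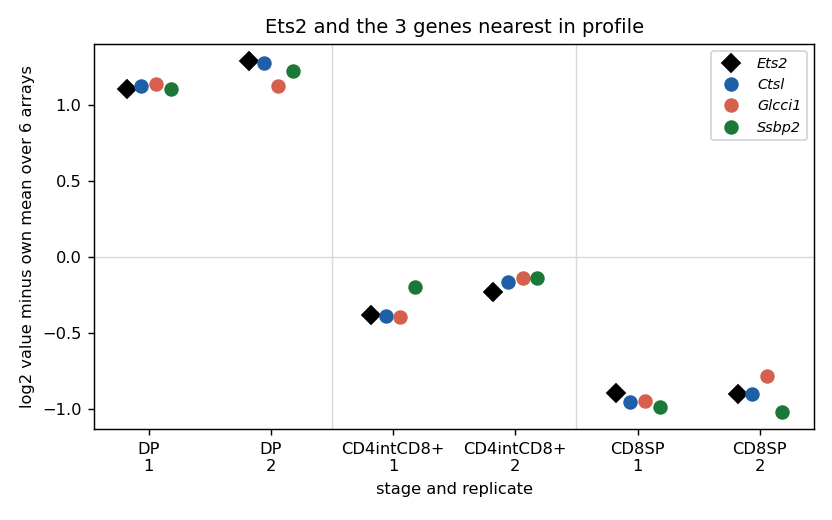
Log2 values of Ets2 (diamonds) and of Ctsl, Glcci1 and Ssbp2 (circles), each minus its own mean over the 6 arrays (y axis), by stage and replicate (x axis). The 4 genes lie between 1.11 and 1.29 in DP, from -0.39 to -0.14 in CD4intCD8+ and between -1.02 and -0.78 in CD8SP.

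Among 18 other Ets family genes, 16 were on the array and 8 passed the filter. Etv5, a factor induced through ERK signalling in other tissues, read 40.7 and 33.9 in DP cells, 84.5 and 132 in CD4intCD8+ cells, and 81.4 and 117 in CD8SP cells. Both later stages lay above DP. It rose in CD4intCD8+ against DP by 1.38 ± 0.24 (adjusted p = 0.0108) and in CD8SP against DP by 1.27 ± 0.24 (adjusted p = 0.00727). The first call was lost without DP replicate 1 or 2 (adjusted p = 0.0542 and 0.0755) and with the actin covariate, where the change was 0.83 (0.129); the second was lost without DP replicate 2 or CD8SP replicate 2 (0.0613 and 0.053). With the mean of its 3 probes, of which the other two read between 5.50 and 18.3, the changes were 0.64 and 0.49, not called (0.131 and 0.202).

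The other 7 genes of that group that passed the filter were not called in any of the comparisons between stages. The called share of the group was thus 12.5% in CD4intCD8+ against DP and in CD8SP against DP. Of all tested genes 11.7% and 19.8% were called. Elk4, the ternary complex factor that mouse thymocytes need for positive selection, read 953 and 892 in DP cells, 821 and 826 in CD4intCD8+ cells, and 875 and 832 in CD8SP cells (log2 change for CD8SP against DP -0.11 ± 0.10, adjusted p = 0.49). The repressors Erf, Etv3 and Etv6 had log2 changes of -0.22, -0.18 and 0.04 for CD8SP against DP. Etv4 had 0.33, and Ehf and Spic, known from epithelial cells and macrophages, had 0.28 and 0.07. Etv4 read 53.4 and 59.2 in CD8SP, against 30.3 and 31.3 in CD4intCD8+, the widest gap of the 7 at that step (log2 change 0.76, adjusted p = 0.202). Erg, Spi1, Spib, Elk1, Elf3, Elf5, Etv2 and Spdef lay under the filter.

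Of 29 listed partners and inputs of Ets factors 21 were analysed here. Of these, 3 (Myb, Rasgrp1 and Ep300) were lower and 0 higher in CD4intCD8+ than in DP, beside 4.84% of all genes lower. In CD8SP against DP 6 were lower and 0 higher, beside 8.35% of all genes lower. The call of Ep300 (-0.63, limma adjusted p = 0.0468) was lost without the filter (0.0609) or the trend (0.0742). With the actin covariate its change was -0.27 (adjusted p = 0.58). The call of Rasgrp1 (-0.41, limma adjusted p = 0.0259) was lost with probes averaged (0.167), without the trend (0.098) and with the actin covariate (0.22). Rasgrp1 also lost this call when any one of the DP or CD4intCD8+ arrays was left out. With the replicate block the shares of all genes called lower were 10.1% in CD4intCD8+ against DP and 13.1% in CD8SP against DP. The list median for CD8SP against DP was -0.20. The 6 were Myb (-1.62 ± 0.12), a factor that binds beside Ets sites in T cell enhancers, Runx1 (-1.28 ± 0.23), which binds DNA jointly with Ets1, the ERK phosphatase gene Dusp6 (-0.78 ± 0.22), Gabpb1, and, named after their values were seen, Rasgrp1 (-0.52 ± 0.09), which couples the receptor to Ras, and the coactivator gene Crebbp (-0.45 ± 0.12). Runx1 read 41.6 and 62.7 in CD8SP, against 124 and 141 in DP, on the probe that stands for it. The mean of its 6 probes gave -0.66 (still called), and the mean of the probes of Crebbp -0.26 (adjusted p = 0.356). Cbfb, the shared partner of Runx factors, had -0.02 (adjusted p = 0.912) and Srf, the partner of Elk3 and Elk4, -0.11 (adjusted p = 0.61). Calls for CD8SP against DP were lost without DP replicate 2 for Runx1 (adjusted p = 0.0539), Dusp6 (0.113) and Crebbp (0.162), without DP replicate 1 for Dusp6 and Crebbp (0.186 and 0.0871), and without CD8SP replicate 2 for Dusp6, at -0.42 (0.207), and Crebbp (0.128). Crebbp also lost its call without CD8SP replicate 1 (0.0952). The count of 6 fell without DP replicate 1, DP replicate 2 or CD8SP replicate 2, as did the number of all tested genes called. With the block 9 were lower and 1 higher. For CD4intCD8+ against DP the count of 3 fell without DP replicate 1, DP replicate 2 or CD4intCD8+ replicate 2. The number of all tested genes called fell in those fits too. The count was 1 without the trend or with probes averaged, where 801 and 764 of all genes were called, against 1277. It was 5 with the block.

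Among 19 tested T cell genes that work in mice or cell lines has tied to Ets factors, 3 were higher and 5 lower in CD4intCD8+ than in DP, and 7 were higher and 6 lower in CD8SP than in DP, where 11.7% and 19.8% of all tested genes were called in either direction. Many are stage markers in their own right. Il2rb, a cytokine receptor chain with an Ets-binding promoter, read 173 and 189 in CD8SP, against 13.8 and 12.1 in DP, and rose by 3.31 ± 0.23 (adjusted p = 6.06e-05). Il7r, the interleukin 7 receptor gene that Gabpa regulates, read 152 and 318 in CD8SP, against 28.8 and 24.2 in DP, and rose by 2.81 ± 0.30 (adjusted p = 0.000415). S1pr1, the egress receptor, read 209 and 148 in CD8SP, against 42.8 and 18.6 in DP (adjusted p = 0.00122). Klf2, a quiescence factor tied to Elf4, rose by 1.82 ± 0.32 (adjusted p = 0.00485), while Rag1, a recombinase subunit, fell by 3.70 ± 0.23 (adjusted p = 4.15e-05). These 5 calls for CD8SP against DP held in all the settings tried. The median of the list was 0.30. Without DP replicate 2 the counts fell in both comparisons, as did the number of all tested genes called. With the block the counts for CD4intCD8+ against DP were 6 higher and 8 lower. Without CD4intCD8+ replicate 2 more of the list were called higher and fewer lower, and without DP replicate 1 fewer were called lower. Fewer of all tested genes were called in each of those fits without an array. With the actin covariate the counts for CD4intCD8+ against DP were 6 higher and 2 lower, without the trend 1 and 3, and with probes averaged 2 and 3. Of all genes 407, 801 and 764 were called in these settings, against 1277. For CD8SP against DP the block gave 8 higher and 6 lower. Of all tested genes the block called 23.5% in either direction for CD4intCD8+ against DP and 30.0% for CD8SP against DP.

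Serum response genes, to which Elk factors bind with Srf, had 1 of 8 tested members higher and 3 lower in CD8SP than in DP, beside 11.5% of all tested genes higher and 8.35% lower. Egr3, an early response factor, rose by 1.70 ± 0.20 (adjusted p = 0.000621), or 0.82 with the mean of its probes. Egr1 (-0.50), Egr2 (-0.53) and Actb (-0.57), the actin gene, were the 3 that were lower, and each of them lost its call without DP replicate 2 or CD8SP replicate 2 (adjusted p from 0.0815 to 0.261). Egr2 and Actb also lost theirs without DP replicate 1 (0.106 and 0.135). Without CD8SP replicate 2 the change of Egr2 was -0.34. The count of 3 was 0 without the trend and 1 with the actin covariate. Of all tested genes 1737 and 2047 were called in these settings, against 2166. The value for Actb was -0.35 with the mean of its probes (limma adjusted p = 0.428). With the actin covariate it was -0.32 (adjusted p = 0.0697). That covariate is itself made from actin probes, so this fit cannot test Actb. Of 10 respiratory genes known as GABP targets 1 was higher and 0 were lower in CD8SP than in DP: Tfb1m, which modifies mitochondrial ribosomal RNA, at 0.88 ± 0.20 (adjusted p = 0.0145), a call lost without DP replicate 2 (0.104) or CD8SP replicate 2 (0.102). With the block 1 was also lower, Cox4i1, a cytochrome oxidase subunit named after its value was seen, at -0.24 (adjusted p = 0.0187 with and 0.0552 without the block). The list medians were -0.20 and -0.03.

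**Figure D5:**
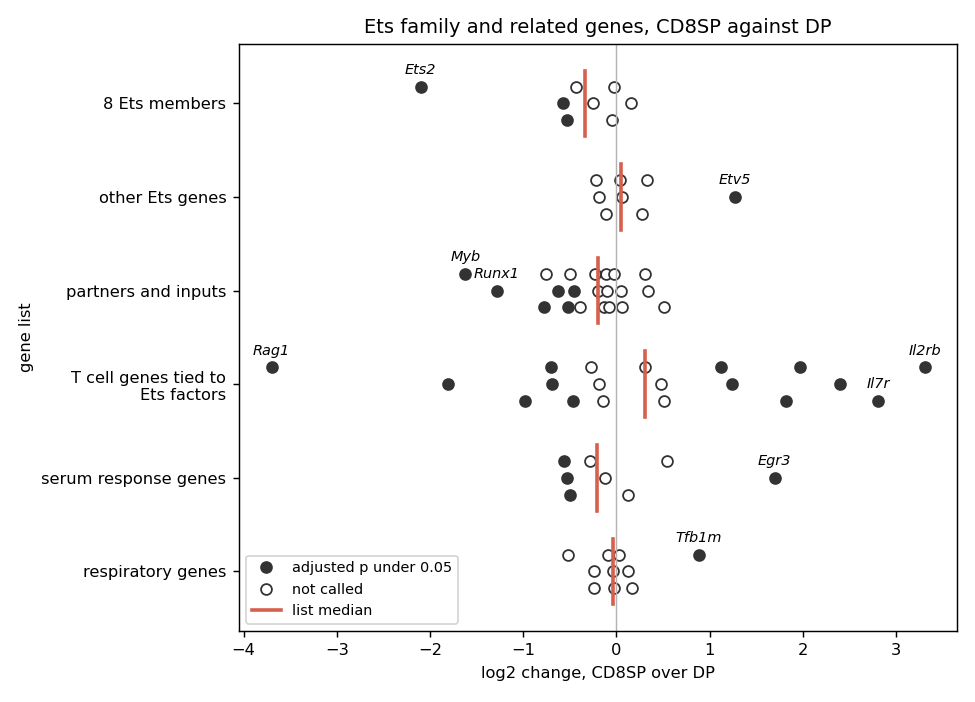
Log2 change for CD8SP over DP (x axis) of each tested gene in 6 lists (rows); filled points passed an adjusted p of 0.05 and the red bar is the list's median. Ets2 is the lowest of the 8 members at -2.10, Etv5 the only called gene among the other Ets genes at 1.27, and the T cell genes spread from -3.70 to 3.31.

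Genes beside the members on the chromosome were counted, from RefSeq order of protein-coding genes. Of 14 neighbours that are not members 9 were tested, and 2 were called in CD8SP against DP, Noct beside Elf2 (0.69) and Cdk17 beside Elk3 (-0.58), named after their values were seen, where 19.8% of all tested genes were called. The call of Noct was lost without DP replicate 2 (adjusted p = 0.0639) or CD8SP replicate 2 (0.051), and Cdk17 without DP replicate 1 (0.189), DP replicate 2 (0.0701) or CD8SP replicate 2, at -0.39 (0.192). In CD4intCD8+ against DP 1 was called, Noct again (0.67), beside 11.7% of genes, and it lost the call without DP replicate 1 (0.073), DP replicate 2 (0.101) or CD4intCD8+ replicate 2 (0.0849). With the block 5 of the 9 were called in CD8SP against DP and 3 in CD4intCD8+ against DP, beside 30.0% and 23.5% of genes. Erg, which lies next to Ets2, was under the filter, and Psmg1 on the other side had a log2 change of 0.36 for CD8SP against DP (adjusted p = 0.133 without and 0.028 with the block), beside -2.10 for Ets2.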

How the data were processed

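Gene expression was measured on 6 single-colour arrays of biotin-labelled cRNA, per the labels. For each array the authors deposited an intensity per probe on a linear scale. Software, scaling and background treatment are not stated in the labels or headers. The deposited intensities include negative values (3.60% of non-control values), and the array medians are nearly equal, so low values and changes in total RNA per cell are not resolved. Of 45101 probes, 64 of them controls, 34945 had a single symbol in the platform annotation.

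Negative values were raised to 0, and log2 of the deposited intensity plus 5.84 was used, 5.84 being the 10th percentile of positive values. Dim genes, below the 40th percentile of mean log2 value (5.19, an intensity of 30.8), were left out. All 6 arrays were fitted with limma 3.58.1 in R 4.3.3 (lmFit, eBayes with trend), with stage alone in the design, 3 residual degrees of freedom and a prior of 6.05. P-values were adjusted by Benjamini-Hochberg over the 10916 genes, and an adjusted p under 0.05 was called. The steps were compared through CD4intCD8+ minus the average of CD8SP and DP. Values after ± are standard errors. The number of arrays limits the precision.

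Same-numbered arrays deviated together, the correlation of their deviations across genes being 0.26 between DP and CD4intCD8+, 0.21 for CD8SP with DP, and 0.30 for CD8SP with CD4intCD8+. As the labels name independent experiments, the block is given where it changes a call or count that is reported. Members, gene lists and the rule for named genes (the 8 members, up to 4 called genes of each list by size of change, 8 fixed genes, and genes named after their values were seen) were chosen with earlier results of these data known. The script was tested on simulated data. Protein sequences were not used here.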

Additional observations from a re-analysis of the deposited data

How the results depend on the processing

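Alternatives were the pseudocount (1, 16, 32), the filter, the probe rule, the intensity trend, quantile normalization, the 4 arrays compared alone, the replicate block, the actin covariate and leaving out each array. Of 564 values of the 8 members under them, 544 kept their side of the threshold, 13 lost a call, 7 gained one and 0 called values changed sign; 31 uncalled values changed sign. The 13 losses were those of Elf1 and Fli1 in CD8SP against DP, named in the report or found without the trend (adjusted p = 0.0761 and 0.0538), with probes averaged (0.165 and 0.0929), with the actin covariate (0.0855 and 0.0672) and, for Elf1, without the filter (0.0504). The replicate block gave 3 members for CD4intCD8+ against DP, 1 for CD8SP against CD4intCD8+ and 1 for the difference of the steps, and changed no other call of a member between stages beyond those and Ets1 in CD8SP against DP; genes called were 2562, 227, 3277 (CD8SP against DP) and 215. In CD8SP against DP 1 member was called without the trend, with the actin covariate or with probes averaged, and 1 to 3 when an array was left out; in CD4intCD8+ against DP 1 to 2 were. Genes called for CD4intCD8+ against DP were 764 with the mean of all probes, 801 without the trend and 407 with the actin covariate, against 1277, and 187 to 1399 without an array. For CD8SP against CD4intCD8+, where 13 were called, they were 8 with the 60th percentile filter, 2 with the mean of all probes, 34 with the actin covariate, 8 with the 4 arrays alone and 6 to 70 without an array. For CD8SP against DP they were 1018 to 2345 without an array. For the difference of the steps 1 was called; 0 were with pseudocount 16, without the filter, with the mean of all probes, with single probes, without the trend and after quantile normalization, 2 with pseudocount 32, 6 with the actin covariate and 0 to 61 without an array. Where an array is left out, the lone array of its stage is assumed to vary like the others. The cause of these shifts was not tested. Signal near background limits Elf4 and the dim probes.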
